A study of Mus musculus with 8 samples.

Results

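The acute phase proteins are plasma proteins that the liver releases in changed amounts during infection or injury. The 10 genes described here encode serum amyloid A (Saa1, Saa2, Saa3 and Saa4), haptoglobin (Hp), the orosomucoids (Orm1, Orm2 and Orm3), lipocalin 2 (Lcn2) and C-reactive protein (Crp). They were taken by their gene names from a deposited table of read counts for 27277 genes, and all 10 were found there. Each passed the filter on low counts that left 15135 genes for testing.

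The cells were mouse primary hepatocytes, the liver cells that make most plasma proteins. Knockout cells came from Lcmr1f/f * albumin-cre mice and control cells from Lcmr1f/f mice. Lcmr1, now called Med19, encodes part of Mediator, a large protein assembly through which transcription factors on DNA reach RNA polymerase II. Cre was driven by the albumin promoter, so deletion was directed at hepatocytes and other liver cells should have kept the gene. The control genotype as labelled has no Cre, so an effect of Cre and one of Lcmr1 loss cannot be told apart. All cells of both genotypes were cultured for 24 h and received 100 nM glucagon, the fasting hormone, for 12 h. No inflammatory stimulus is named in the labels, and the sources used here do not give the age and sex of the mice. RNA was sequenced from 3 knockout and 3 control libraries, and chromatin immunoprecipitation (ChIP) was sequenced from 1 knockout and 1 control library.

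In hepatocytes the acute phase genes are switched on mainly by 2 routes. Interleukin-6 and its relatives bind receptors that share the subunit gp130 and activate the kinases JAK and the transcription factor STAT3, while interleukin-1 and tumour necrosis factor activate NF-kB. The factors C/EBP beta and C/EBP delta act with both routes, and HNF factors keep the genes expressed in resting hepatocytes. SOCS3 and A20, the product of Tnfaip3, are feedback inhibitors of these routes. In mice, Saa1 and Saa2 are among the most inducible liver genes, whereas Crp is a modest reactant and serum amyloid P, the product of Apcs, is the main pentraxin.

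Sequence just upstream of the transcription start is shown for 5 members, because the Saa1 and Saa2 pair and the Orm2 and Orm3 pair are close copies and because a ChIP region lay at the start of Crp. The windows are from RefSeq on GRCm38.p6, run from 250 bases before to 50 bases after the start and are written 5′ to 3′ on the strand of the gene. Windows were available for 8 of the 10 members, and those of Hp and Orm1 were not used. Capitals mark matches on either strand to TTNNGNAA, a relaxed form of the C/EBP motif, and to the TATA box TATAAA. The Saa1 window is chr7:46742931-46743230 (minus strand), that of Saa2 chr7:46751583-46751882 (plus strand), that of Orm2 chr4:63362199-63362498 (plus strand), that of Orm3 chr4:63355908-63356207 (plus strand) and that of Crp chr1:172697806-172698105 (plus strand).
Saa1: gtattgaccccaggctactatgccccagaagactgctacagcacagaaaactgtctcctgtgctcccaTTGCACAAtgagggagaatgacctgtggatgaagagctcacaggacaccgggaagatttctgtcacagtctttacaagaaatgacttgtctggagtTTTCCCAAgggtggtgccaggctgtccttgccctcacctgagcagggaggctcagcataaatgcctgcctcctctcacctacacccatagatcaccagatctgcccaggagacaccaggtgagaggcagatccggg
Saa2: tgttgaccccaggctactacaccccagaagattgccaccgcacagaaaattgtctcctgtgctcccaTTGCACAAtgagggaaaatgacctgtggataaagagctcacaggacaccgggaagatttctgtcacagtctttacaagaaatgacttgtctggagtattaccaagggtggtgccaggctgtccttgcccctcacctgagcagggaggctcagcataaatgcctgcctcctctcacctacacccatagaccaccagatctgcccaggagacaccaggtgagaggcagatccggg
Orm2: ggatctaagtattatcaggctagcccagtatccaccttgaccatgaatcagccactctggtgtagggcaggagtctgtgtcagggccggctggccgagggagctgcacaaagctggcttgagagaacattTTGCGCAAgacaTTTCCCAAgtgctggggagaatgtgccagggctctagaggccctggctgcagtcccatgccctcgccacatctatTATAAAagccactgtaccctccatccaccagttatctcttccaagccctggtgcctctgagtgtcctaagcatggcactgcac
Orm3: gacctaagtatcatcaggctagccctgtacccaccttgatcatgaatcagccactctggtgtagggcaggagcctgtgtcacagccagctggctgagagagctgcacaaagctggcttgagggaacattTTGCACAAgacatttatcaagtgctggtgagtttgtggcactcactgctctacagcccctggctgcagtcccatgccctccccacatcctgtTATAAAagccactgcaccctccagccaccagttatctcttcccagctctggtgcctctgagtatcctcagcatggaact
Crp: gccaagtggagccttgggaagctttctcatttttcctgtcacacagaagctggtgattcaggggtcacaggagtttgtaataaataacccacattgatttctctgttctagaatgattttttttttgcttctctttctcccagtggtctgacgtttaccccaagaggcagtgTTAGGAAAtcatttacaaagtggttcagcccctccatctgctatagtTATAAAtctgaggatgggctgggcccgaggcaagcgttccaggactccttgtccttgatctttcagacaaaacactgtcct

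The Saa1 and Saa2 windows were identical in 95.3% of aligned columns, and those of Orm2 and Orm3 in 86.2%. Saa1 shared 50.9% with Saa3 and 46.8% with Saa4. A match to TTNNGNAA was present in 8 of 8 member windows and in 40.7% of all 32851 windows of the same length. The strict palindrome TTGCGCAA was found in Orm2 alone among the 8, at position -120 from the start, and in 0.183% of all windows. The same letters also match the relaxed form, so that site counts under both. TATAAA stood near the start in Orm2, Orm3 and Crp, at positions -33, -29 and -31, and in 13.6% of all windows. None of the 8 windows held GGACTTTCC or GGANNTTCC (NF-kB forms, 0.344% and 4.26% of all windows), TTCNNNGAA (a STAT form, 8.3%), GTTAATNAT (an HNF1 form, 0.801%) or CAAAGTCCA (an HNF4 form, 0.475%). These searches covered both strands, and a match describes letters only. Only these spellings were searched, so longer or looser forms of the same motifs may be present in the windows, those of NF-kB included.

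Total gene counts ranged from 25305697 to 26344039 in the knockout libraries and from 22191786 to 26595249 in the control libraries. Levels below are CPM, counts scaled to a common library size with TMM factors, and are not corrected for gene length, so they are compared between libraries and not between genes. Med19 stood at 2.91, 5.27 and 3.02 CPM in knockout libraries 1, 2 and 3, against 7.50, 10.8 and 13.4 CPM in control libraries 1, 2 and 3. That is a log2 fold change of -1.50 (SE 0.31, edgeR adjusted p = 0.012). Without knockout replicate 1 the edgeR adjusted p for Med19 was 0.0505. Summed over 12 hepatocyte markers, the level was 31476 to 40745 CPM in knockout and 115660 to 119830 CPM in control libraries. Summed over 17 macrophage markers it was 893 to 1064 CPM in knockout and 452 to 551 CPM in control libraries, with 0 of the 17 at 0 counts in any library. In such bulk samples, fewer cells of a type and less RNA per cell cannot be told apart.

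Control replicate 1 stood apart from the other controls in these genes. For all 10 members it had the highest level of the 6 libraries. In Saa1, Saa2, Orm2 and Lcn2 it was at least 4-fold above both other controls. That was true of 4 of 10 members and of 1.04% of all genes tested (157 of 15135). In the other 5 libraries, 1 to 18 genes stood that far above the other libraries of their group, and 0 of them were members. The 10 members together took 0.172%, 0.204% and 0.158% of the counts of the knockout libraries, against 0.974%, 0.372% and 0.371% of the counts of the control libraries. Each of the 10 members is therefore given with all 6 libraries and without control replicate 1, as are the counts of the gene lists where they differ.

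With all 6 libraries, Hp and Crp fell in knockout hepatocytes and the other 8 members did not pass the edgeR test (adjusted p under 0.05). That is 2 of 10 lower against 13.0% of all genes tested, and 0 of 10 higher against 12.6%. At an unadjusted p under 0.05 in edgeR, 7 of 10 were lower, against 19.7% of all genes tested, and 0 higher, against 19.9%. Every knockout library was below every control library in 6 of the 10 (Saa2, Saa4, Hp, Orm1, Orm2 and Crp), as it was for 22.4% of all genes. The median log2 fold change of the 10 was -1.39, against 0.01 over all genes. Without control replicate 1, edgeR called 4 of 10 lower (Hp, Crp, Orm1 and Orm2) against 16.0% of all genes, and 1 of 10 higher (Lcn2) against 15.3%. The median was then -0.57, against 0.04 over all genes. DESeq2 on all 6 libraries called 5 lower (Hp, Crp, Orm1, Orm2 and Saa4) against 15.9% of all genes, and 0 higher against 14.5%. It gave no adjusted p for Saa1, Saa2 or Lcn2.

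**Figure D1:**
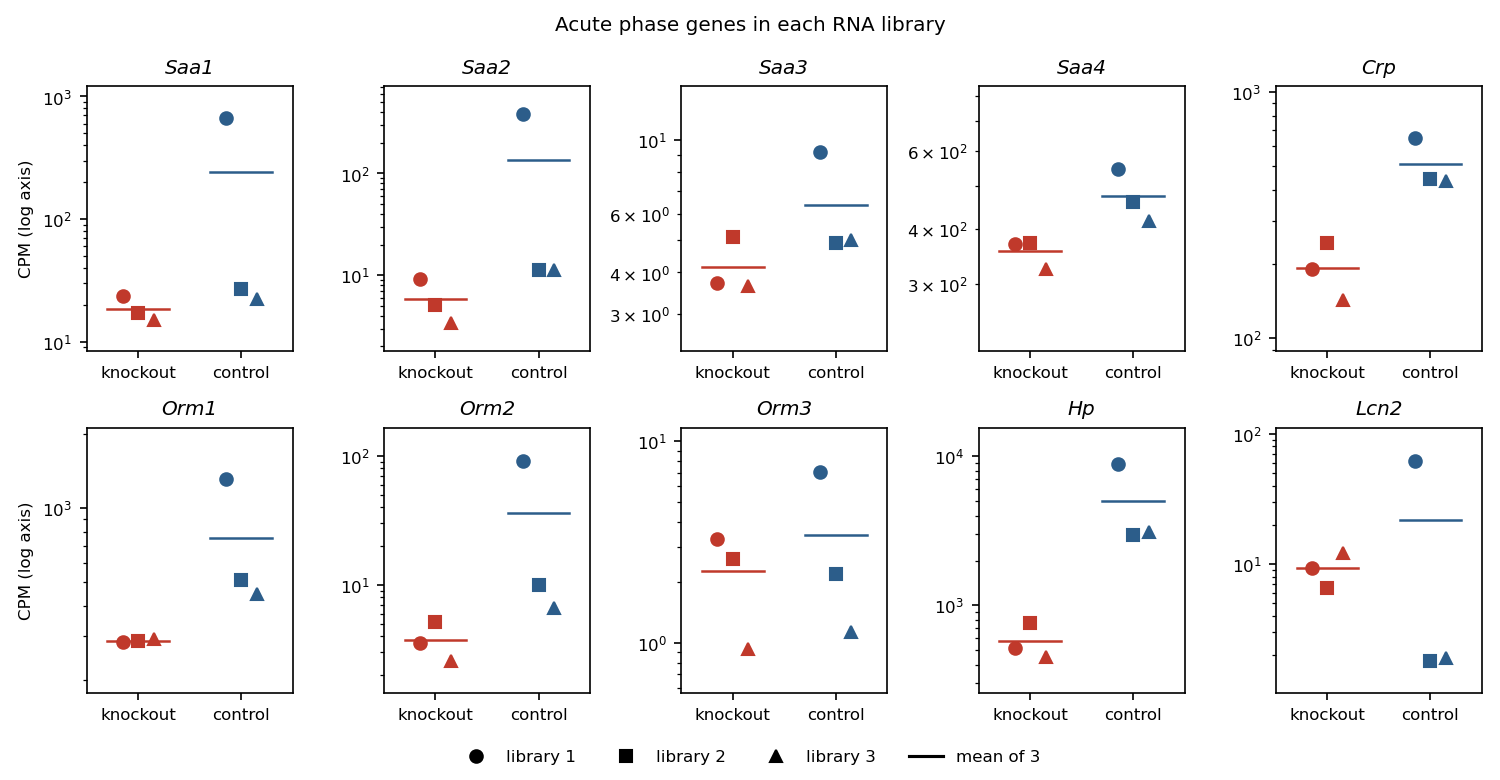
CPM (log axis) of each of the 10 members in every RNA library, with knockout libraries left of control libraries, a symbol for each library number and a line at the mean of 3. Control replicate 1 is the top point in every panel, and only in Saa2, Saa4, Hp, Orm1, Orm2 and Crp do all 3 knockout points lie below all 3 control points.

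Serum amyloid A proteins are small apolipoproteins carried on high-density lipoprotein. Their genes lie together on chromosome 7 (mm10). Saa1 (ENSMUSG00000074115, 46740497 to 46742980, minus strand) had 23.6, 17.2 and 15.1 CPM in knockout libraries 1 to 3, against 671, 27.1 and 22.4 CPM in control libraries 1 to 3. Control replicate 1 alone was high, and the level of knockout replicate 1 was above that of control replicate 3, so the groups overlapped. The log2 fold change of Saa1 was -3.69 (SE 1.48, 95% interval -7.37 to -0.01, edgeR adjusted p = 0.125). Without control replicate 1 it was -0.42 (SE 0.20, edgeR adjusted p = 0.141).

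Saa2 (ENSMUSG00000057465, 46751790 to 46754313, plus strand), the second inducible form, had 9.17, 5.15 and 3.40 CPM in knockout libraries, against 381, 11.2 and 11.3 CPM in control libraries. All 3 knockout libraries were below all 3 controls, also when control replicate 1 was set aside. The log2 fold change stood at -4.51 (SE 1.66, edgeR adjusted p = 0.102), and -0.93 (SE 0.38, edgeR adjusted p = 0.104) without control replicate 1. Saa2 made up 28.0%, 23.1% and 18.3% of the joint Saa1 and Saa2 counts in knockout libraries, against 36.2%, 29.1% and 33.5% in control libraries. The widest of the Wilson 95% intervals on these shares ran from 30.0% to 37.3% (control replicate 3) and covers counting error only. Reads of Saa1 and Saa2, which are close copies, may have been exchanged or divided when they were counted, so both levels are uncertain.

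Saa3 (ENSMUSG00000040026, 46711998 to 46715700, minus strand) is a form that macrophages and fat cells also make. It had 3.71, 5.11 and 3.65 CPM in knockout libraries, against 9.21, 4.91 and 5.01 CPM in control libraries, and the groups overlapped. Knockout over control gave a log2 fold change of -0.62 (SE 0.30, edgeR adjusted p = 0.168), and -0.26 without control replicate 1 (edgeR adjusted p = 0.435). The constitutive form Saa4 (ENSMUSG00000040017, 46727998 to 46732603, minus strand) had 370, 372 and 325 CPM in knockout libraries, against 546, 461 and 416 CPM in control libraries. The groups did not overlap, and the standard deviation was 26.4 CPM in knockout and 66.0 CPM in control libraries. The log2 fold change stood at -0.42 (SE 0.13, edgeR adjusted p = 0.0564), and -0.31 without control replicate 1 (edgeR adjusted p = 0.0592). On unscaled library sizes the value of Saa4 turned to 0.18 (edgeR adjusted p = 0.229), a scaling that moved the median of all genes to 0.60.

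Haptoglobin binds free haemoglobin released from red cells. Hp (ENSMUSG00000031722, chromosome 8, 109575128 to 109579172, minus strand) fell to 514, 761 and 447 CPM in knockout libraries, against 8889, 2972 and 3090 CPM in control libraries. Every knockout library was far below every control library, with or without control replicate 1. The log2 fold change of Hp was -3.12 (SE 0.51, edgeR adjusted p = 0.00795), or -2.40 (SE 0.22, edgeR adjusted p = 0.000389) without control replicate 1. Over the other settings tried, the log2 fold change of Hp lay between -3.39 and -2.505 and passed the test in each. Hp alone took 0.0625%, 0.0909% and 0.0567% of all counts in knockout libraries, against 0.686%, 0.249% and 0.258% in control libraries.

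The orosomucoids, or alpha-1-acid glycoproteins, are lipocalin-fold proteins that bind basic drugs and lipids in plasma, and their genes sit side by side on chromosome 4. Orm1 (ENSMUSG00000039196, 63344560 to 63348163, plus strand) had 284, 287 and 293 CPM in knockout libraries, against 1309, 509 and 444 CPM in control libraries. The knockout values were close to each other and below all 3 controls. With 6 libraries the log2 fold change stood at -1.39 (SE 0.41, edgeR adjusted p = 0.05001), just short of the threshold. Orm1 fell by 0.73 on the log2 scale without control replicate 1 (edgeR adjusted p = 0.000995), and it also passed without control replicate 3 (log2 fold change -1.67, edgeR adjusted p = 0.0318).

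Orm2 (ENSMUSG00000061540, 63362449 to 63365878, plus strand) had 3.52, 5.18 and 2.59 CPM in knockout libraries, against 91.8, 10.0 and 6.57 CPM in control libraries. Here too the groups did not overlap, and control replicate 1 was 9.16 times the next control. The log2 fold change stood at -3.26 (SE 1.14, edgeR adjusted p = 0.0900). Orm2 fell by 1.15 on the log2 scale without control replicate 1 (SE 0.31, edgeR adjusted p = 0.0246). Orm3 (ENSMUSG00000028359, 63356162 to 63359511, plus strand) had low counts, with 3.29, 2.60 and 0.94 CPM in knockout libraries, against 7.01, 2.19 and 1.13 CPM in control libraries. Its groups overlapped, the log2 fold change stood at -0.60 (SE 0.72, edgeR adjusted p = 0.570), and the sign turned to 0.44 without control replicate 1 (edgeR adjusted p = 0.579) and to 0.01 with library size alone. The 3 Orm genes are also close copies whose reads could have been split.

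Lipocalin 2 withholds iron from bacteria by binding their siderophores, and it is made by neutrophils and macrophages as well as by stimulated hepatocytes. Lcn2 (ENSMUSG00000026822, chromosome 2, 32384633 to 32388252, minus strand) had 9.33, 6.48 and 12.2 CPM in knockout libraries, against 61.9, 1.81 and 1.89 CPM in control libraries. Control replicate 1 lay above every knockout library and the other 2 controls lay below every one. With all 6 libraries the log2 fold change stood at -1.23 (SE 1.38, 95% interval -4.66 to 2.198, edgeR adjusted p = 0.550). Lcn2 rose by 2.33 on the log2 scale without control replicate 1 (SE 0.31, 95% interval 1.62 to 3.04, edgeR adjusted p = 0.000879), the one member that turned from a negative value to a called rise.

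Macrophage and neutrophil markers were set beside Lcn2. Of 17 macrophage markers 12 rose and 0 fell, among them the complement subunit C1qb (log2 fold change 0.76), the Kupffer cell protein Cd5l (0.97) and the pore-forming protein Mpeg1 (2.18). The 13 neutrophil markers summed to 7.01, 6.48 and 14.6 CPM in knockout libraries, against 13.0, 5.10 and 3.88 CPM in control libraries. As for Lcn2, control replicate 1 was the highest control and the other 2 lay below every knockout library. The defining neutrophil gene Ly6g was at 0 counts in 4 of the 6 libraries and under 0.1 CPM in the other 2. Mpo and Ltf, genes of neutrophil granule proteins, had 2 to 7 and 3 to 5 counts in the knockout libraries and were at 0 in all 3 controls. S100a8, Retnlg and Mmp8 were instead highest in control replicate 1, with 45, 12 and 7 counts. Their highest knockout counts were 22, 8 and 3. Mpo, Ltf, S100a8, Retnlg and Mmp8 were named after their values were seen. Of the 4 neutrophil markers tested, 0 passed edgeR with 6 libraries, 0 were under an unadjusted p of 0.05 and DESeq2 called 0. Without control replicate 1, 1 of the 4 rose: S100a9, a calcium-binding protein of neutrophils and monocytes, with 0.71, 0.32 and 1.62 CPM in knockout libraries, against 3.26, 0.10 and 0 CPM in control libraries (log2 fold change 4.01, edgeR adjusted p = 0.0322). The most abundant, the receptor Csf3r, had 3.75, 3.94 and 8.85 CPM in knockout and 4.87, 3.53 and 3.23 CPM in control libraries. Among markers of other cells, 1 of 12 endothelial genes rose (Lyve1, 2.18), as did 2 of 11 stellate and fibroblast genes (Col1a2, 0.89, and Postn, 0.77) and 1 of 7 bile duct genes. The share of all genes tested that rose was 12.6% with 6 libraries and 15.3% without control replicate 1. Without control replicate 1 neither Col1a2 nor Postn passed (edgeR adjusted p = 0.0603 and 0.0607). The 1 of 11 that rose in that fit was another gene, Acta2 (log2 fold change 0.92, edgeR adjusted p = 0.0235). The calls of Col1a2 and Postn ended in 5 of the 6 fits that left out a library. The part of these cells in the Lcn2 values was not tested.

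C-reactive protein is a pentraxin that binds phosphocholine on microbes and dying cells. Crp (ENSMUSG00000037942, chromosome 1, 172698055 to 172833031 in the table, plus strand) fell to 192, 244 and 143 CPM in knockout libraries, against 652, 444 and 433 CPM in control libraries. All 3 knockout libraries were below all 3 controls, and control replicate 1 was 1.47 times the next control. The log2 fold change stood at -1.40 (SE 0.24, edgeR adjusted p = 0.00579), or -1.19 (SE 0.20, edgeR adjusted p = 0.00481) without control replicate 1. It passed under every alternative tried, with values from -1.62 to -0.81. The gene as drawn in the table covers 134977 bases, a long span that takes in a pseudogene of the same table, so reads of the 2 may be mixed.

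The authors' deposited table also marks Hp and Crp as significant, with log2 fold changes of -3.13 and -1.41. In the authors' deposited table Orm1 (-1.40, adjusted p = 0.00112) and Orm2 (-3.28, adjusted p = 0.0194) are marked too. Saa4 has an adjusted p of 0.0454 in the authors' deposited table and is not marked, and no adjusted p is given there for Saa1, Saa2 or Lcn2.

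**Figure D2:**
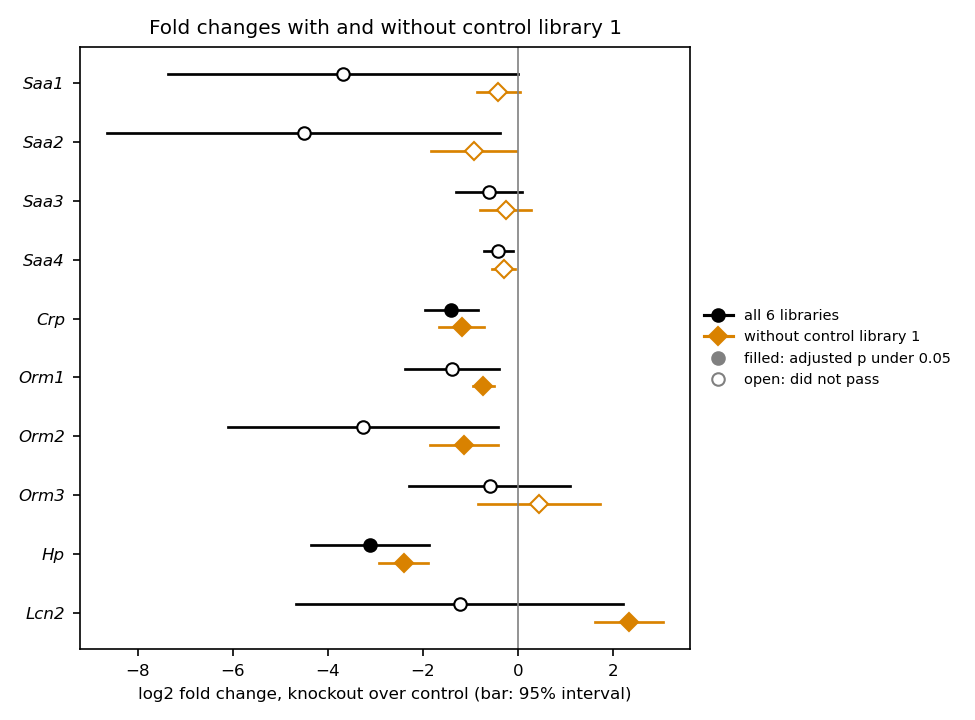
Log2 fold change of each member, knockout over control, with its 95% interval, from edgeR on all 6 libraries and without control replicate 1. The intervals of Saa1, Saa2, Orm2 and Lcn2 are several times narrower without that library, and the value of Lcn2 moves from -1.23 to 2.33.

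A list of 30 other genes, drawn up as positive acute phase genes (products that rise in plasma during inflammation), was read in the same way. Whether each of them responds in mice was not checked. Of 28 tested, 14 fell and 0 rose in edgeR, with a median log2 fold change of -1.01. Over all genes tested, 13.0% fell and 12.6% rose. At an unadjusted p under 0.05, 16 were lower and 0 higher, and DESeq2 called 15 lower and 0 higher. With any 1 of the 3 knockout replicates left out, 8 fell. Those with the smallest adjusted p were the mannose-binding lectin Mbl1 (-1.66), the protease inhibitor Serpina1a (-1.58) and the copper carrier ceruloplasmin, Cp (-1.46), with edgeR adjusted p from 0.000384 to 0.00137. In these 3 control replicate 1 stood at 0.86 to 1.03 times the next control. Mbl1, for example, had 55.8, 68.6 and 53.6 CPM in knockout libraries, against 176, 188 and 198 CPM in control libraries. Under library size alone 8 of the 28 fell and 2 rose, where 617 of all 15135 genes tested fell and 7711 rose.

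Other genes of this list followed the pattern of the inducible members in the controls. The following were singled out after their values were seen. Fibrinogen alpha, Fga, fell to 2316, 2553 and 2008 CPM in knockout libraries, against 19049, 6389 and 6086 CPM in control libraries (log2 fold change -2.20, edgeR adjusted p = 0.0204). The protease inhibitor Serpina3n had 283, 284 and 265 CPM in knockout and 2958, 466 and 460 CPM in control libraries, with an edgeR adjusted p of 0.102, and fell without control replicate 1 (log2 fold change -0.74, edgeR adjusted p = 0.000643). Serum amyloid P, Apcs, had 42.9, 42.9 and 50.7 CPM in knockout and 199, 39.8 and 39.1 CPM in control libraries, and its log2 fold change of 0.20 without control replicate 1 did not pass (edgeR adjusted p = 0.215). Without that library Mt1 (2.54), Cd14 (1.31) and Il1rn (0.96) rose, as Lcn2 did. They encode a metallothionein, the lipopolysaccharide co-receptor and the interleukin-1 receptor antagonist. In that fit 16 of 29 fell and 4 rose, with a median of -0.56.

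**Figure D3:**
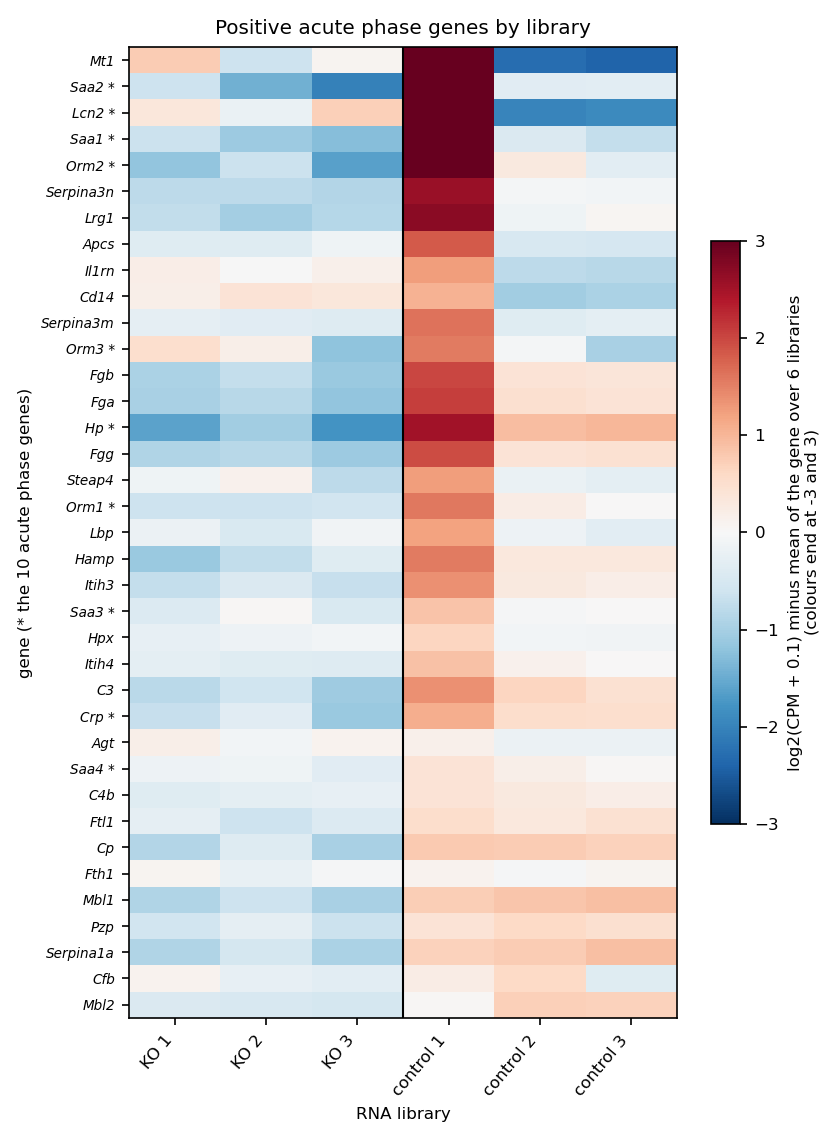
Level of the 10 members and other tested positive acute phase genes in each RNA library, as log2(CPM + 0.1) minus the mean of that gene over the 6 libraries, knockout (KO) columns left of control columns. Control replicate 1 has the highest value of many rows, including Saa1, Saa2, Orm2, Lcn2, Serpina3n, Lrg1 and Mt1, while rows such as Mbl1 and Cp are alike in the 3 controls.

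Of 14 genes whose plasma products decline in the acute phase, 11 fell and 1 rose (median log2 fold change -1.13), and 12 fell and 2 rose without control replicate 1. Over all genes tested, 13.0% fell and 12.6% rose with 6 libraries, and 16.0% fell and 15.3% rose without control replicate 1. Albumin, Alb, fell to 13928, 21126 and 13714 CPM in knockout libraries, against 74369, 74980 and 75825 CPM in control libraries (log2 fold change -2.21, edgeR adjusted p = 0.00044). The lipoprotein component Apoa2 (-1.60) and the retinol carrier Rbp4 (-1.34) fell as well, and the coagulation factor gene F12 rose (0.60, edgeR adjusted p = 0.00646). In all 4 the 3 controls lay close together. Genes of both directions of the plasma response had more falls than rises in these libraries. Of 12 hepatocyte markers 11 fell (12 of 12 without control replicate 1), among them Cyp2e1 (-2.79) and Asgr1 (-1.15). Whether these falls share a cause was not tested. The hepatocyte markers are not a separate set. Alb, Apoa1, Ttr and Trf are also among the 14 genes above, and Hnf4a is also among the transcription factors below.

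Few genes of the cytokines that drive the members had enough counts to test. Of 11 ligand genes, 10 were in the table and 3 passed the filter. Il6 and Ifng, which encodes interferon gamma, were below 0.1 CPM in all 6 libraries. No ligand passed in edgeR with all 6 libraries, 1 at an unadjusted p under 0.05 (Ctf1), and DESeq2 called 0. The interleukin-1 genes Il1a and Il1b, also tested, were named after their values were seen. Il1a had 1.55, 1.84 and 4.68 CPM in knockout libraries, against 4.63, 1.10 and 1.08 CPM in control libraries. Il1b had 0.68, 2.73 and 4.27 CPM in knockout libraries, against 6.43, 0.72 and 0.48 CPM in control libraries. Without control replicate 1 both log2 fold changes were positive, but neither passed (edgeR adjusted p = 0.103 and 0.101). Cardiotrophin 1, Ctf1, an interleukin-6 relative, had 2.65, 2.89 and 3.83 CPM in knockout and 3.46, 5.63 and 6.19 CPM in control libraries and fell without control replicate 1 (log2 fold change -0.92, edgeR adjusted p = 0.0193).

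Of 14 receptor genes tested, 3 fell and 3 rose, and 4 fell and 4 rose without control replicate 1. The shares over all genes tested were 13.0% lower and 12.6% higher, and 16.0% and 15.3% without control replicate 1. The interleukin-6 receptor alpha chain, Il6ra, fell to 49.0, 43.9 and 21.9 CPM in knockout libraries, against 67.2, 99.3 and 86.7 CPM in control libraries (log2 fold change -1.14, edgeR adjusted p = 0.0344). That call ended in several alternatives, including library size alone (-0.57, edgeR adjusted p = 0.138) and leaving out control replicate 3 (-1.13, edgeR adjusted p = 0.0850), control replicate 2 (-1.02, edgeR adjusted p = 0.0925) or knockout replicate 2 (-1.27, edgeR adjusted p = 0.0688). Il1r1 and Il1rap, which together form the interleukin-1 receptor, fell by 1.98 and 1.02 on the log2 scale (edgeR adjusted p = 0.0118 and 0.00353). Il1r1 had 26.3, 31.6 and 20.3 CPM in knockout libraries, against 166, 72.7 and 69.5 CPM in control libraries, and its groups did not overlap with or without control replicate 1. Its edgeR adjusted p was 0.0502 without knockout replicate 1. The shared subunit gp130, Il6st, had 195, 252 and 179 CPM in knockout and 271, 199 and 184 CPM in control libraries, with overlapping groups and an edgeR adjusted p of 0.827. Osmr (0.88), Il10rb (0.80) and Ifngr1 (0.60), receptor chains for oncostatin M, the interleukin-10 family and interferon gamma, rose. Those 3 rises were called in none of the fits without control replicate 2, knockout replicate 1 or knockout replicate 2, where they were 0.51 to 0.91 with edgeR adjusted p from 0.0546 to 0.115. Under library size alone 7 receptors rose and 1 fell, where 7711 of all 15135 genes tested rose and 617 fell.

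Among 34 signalling genes and transcription factors, 9 fell and 2 rose, and 10 fell and 6 rose without control replicate 1. Of all genes tested, 13.0% fell and 12.6% rose, and 16.0% fell and 15.3% rose without control replicate 1. Jak1, which encodes a kinase that binds gp130, rose (log2 fold change 0.83, edgeR adjusted p = 0.00224). The strongest falls by adjusted p were Cebpa (-1.28), Hnf4a (-1.35) and Onecut1 (-1.75), all factors that maintain hepatocyte expression. Cebpb, the inducible C/EBP factor, fell to 49.8, 45.0 and 58.3 CPM in knockout libraries, against 124, 115 and 66.0 CPM in control libraries (log2 fold change -0.99, edgeR adjusted p = 0.0206). Its call ended without control replicate 2, knockout replicate 1 or knockout replicate 2 (edgeR adjusted p from 0.0656 to 0.0750). The NF-kB inhibitor Nfkbia fell by 0.54 (edgeR adjusted p = 0.0174), a value that turned to 0.05 under library size alone. It did not pass without control replicate 3, knockout replicate 1 or knockout replicate 3 (edgeR adjusted p from 0.0544 to 0.0702). On unscaled library sizes 3 of the 34 fell and 9 rose, where 617 of all 15135 genes tested fell and 7711 rose.

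Socs3, Stat3 and Tnfaip3, genes that STAT3 or NF-kB is known to switch on, were high in control replicate 1, whereas Nfkbia, another NF-kB target, had 67.0, 61.9 and 64.0 CPM in control libraries 1 to 3. Socs3 had 22.5, 17.0 and 10.9 CPM in knockout libraries, against 179, 15.7 and 14.9 CPM in control libraries (edgeR adjusted p = 0.220). Without control replicate 1 its log2 fold change was 0.13 (edgeR adjusted p = 0.751). Stat3 had 230, 167 and 192 CPM in knockout and 473, 188 and 176 CPM in control libraries, and its log2 fold change of -0.51 (edgeR adjusted p = 0.381) was 0.10 without control replicate 1 (edgeR adjusted p = 0.606). Tnfaip3, named after its values were seen, had 4.88, 6.29 and 8.29 CPM in knockout and 79.4, 3.81 and 1.72 CPM in control libraries (log2 fold change -2.13, edgeR adjusted p = 0.314), and it rose in the fit without control replicate 1 (log2 fold change 1.21, edgeR adjusted p = 0.0386).

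Outside all lists, the 5 genes whose log2 CPM had the highest Pearson r with the mean scaled profile of the members over the 6 libraries were Sf3a3, Zpr1, Ranbp2, Bag3 and Dpp9, with r from 0.997 to 0.999 among 9599 candidates. The profile is dominated by control replicate 1. Zpr1, for example, had 120, 122 and 104 CPM in knockout and 316, 149 and 140 CPM in control libraries. Their edgeR adjusted p with all 6 libraries was 0.0962 to 0.134.

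On either side of the member loci, the nearest protein-coding gene that passed the count filter was also read. Nearer genes with too few counts were passed over. At Crp these flanking genes, Dusp23 and Apcs, lay 65093 and 60930 bases away. Of 10 flanking protein-coding genes, 2 fell (Col27a1 and Dusp23) and 1 rose (Hps5), with log2 fold changes from -1.03 to 0.90. The shares over all genes tested were 13.0% lower and 12.6% higher. Control replicate 1 stood at 0.44 to 5.01 times the next control in these neighbours. Apcs, the neighbour of Crp and itself an acute phase gene, was at the upper end. Next to Saa2, Hps5 had 38.0, 35.9 and 45.7 CPM in knockout libraries, and control replicate 1, at 18.6 CPM, was 0.81 times the next control. On the other side of the cluster, Saal1 was at 0.93 times the next control.

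The ChIP lists hold regions called by the authors in 1 library per genotype, and the sample titles and the design text name different targets, so the precipitated protein is not named here. The knockout list has 1309 regions with 1649 summits and the control list 16995 regions with 22793 summits. With 1 library per genotype no test was possible, and library and genotype cannot be told apart. In the knockout list 0 of 10 members had a region within 10 kb, against 7.20% of the 15135 genes tested. The control list had one at 3 of 10 (Hp, Crp and Saa4), against 51.7% of all tested genes.

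At Hp the control list held 2 regions with 6 summits. The larger, chr8:109573176-109576938, covers 3763 bases across the 3′ end of the gene, and its highest summit had a fold over background of 11.1 as given by the authors. The highest summit of Hp lay within the gene, 3572 bases from the start. At Crp the control list had 3 regions, of which chr1:172697935-172698212 spans the transcription start shown above in sequence. Its summit was 29 bases from the start and had a fold of 4.61, below the median of 5.33 over all summits of that list. Saa4 had a single region of 234 bases, with a summit 433 bases past the 3′ end and a fold of 4.45.

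The other 7 members had no region within 10 kb in either list. The region nearest to Saa1 was 109964 bases away in the knockout list and 12856 bases away in the control list. That control region is the one past the end of Saa4, and it is also the nearest to Saa2 and Saa3. For Orm1, Orm2 and Orm3 the nearest region was 952266 to 970155 bases away in the knockout list and 188714 to 206429 bases away in the control list. Lcn2 had its nearest region 24889 bases away in the knockout list and 24641 bases away in the control list. With genes extended by 50 kb in place of 10 kb, 1 of 10 members (Lcn2) had a region in the knockout list, against 13.1% of all genes tested, and 7 of 10 in the control list, against 69.4%. Saa1, Saa2, Saa3 and Saa4 all lie within 50 kb of the same region, that of Saa4, so the 7 are not independent.

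**Figure D4:**
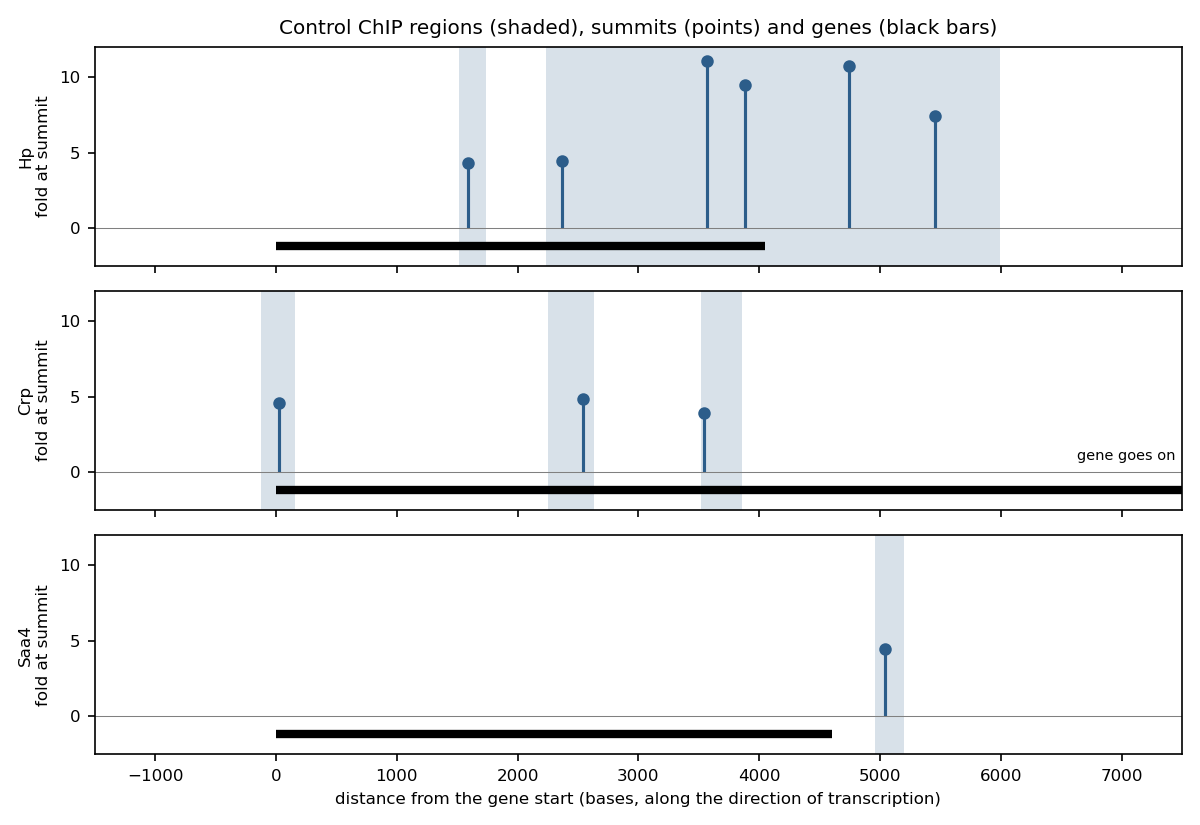
Regions of the control ChIP list at Hp, Crp and Saa4, drawn by distance in bases from the annotated gene start along the direction of transcription, with the gene body as a bar and each summit as a point. The Hp regions lie over the middle and 3′ part of the gene and beyond it, the first Crp region covers the start, and the Saa4 region lies past the gene end.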

How the data were processed

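RNA from 3 knockout and 3 control cultures and ChIP from 1 of each were grouped by the sample titles. The deposited RNA values are whole-number counts per Ensembl gene on mm10, and the submitters' processing notes name HISAT2 2.1.0, Bowtie2 2.2.3 and HTSeq 0.6.0. The sources used here do not give the strand setting or how multi-mapped reads were treated. The same deposited table gives the authors' mean signal, fold (ratio), log2 fold change and raw and adjusted p-value of each gene. Each ChIP library has 1 deposited narrowPeak list, in which the authors give a score, a ratio (fold over background), and p and q as -log10 per summit. For ChIP the submitters' processing notes name MACS2, BWA, SAMtools, DESeq2 and deepTools, with no versions.

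Here counts were filtered (filterByExpr, minimum count 10, total 15; 15135 of 27277 genes), scaled by TMM, and genotype was tested two-sided by robust quasi-likelihood fits (edgeR 4.0.16, R 4.3.3), with p-values adjusted by Benjamini-Hochberg over all tested genes with a threshold of 0.05. The method was tested on simulated data in which all genes had the same relative spread and no library stood apart. That test does not cover a library like control replicate 1. Whether each library is a separate animal is not stated in the labels, so the p-values may reflect only technical spread between these samples. TMM factors were 1.20 to 1.27 in knockout and 0.773 to 0.838 in control libraries. Replicates differed beyond sampling noise: chi-square values divided by their degrees of freedom were 27.3 to 54.7 between knockout libraries, 7.41 between control replicates 2 and 3, and 143 to 150 between control replicate 1 and the others. Alternatives were other scalings, DESeq2 1.42.0, no filter, a replicate block and each library left out.

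ChIP regions were assigned to genes extended by 10 kb, with an overlap of at least 1 base. Motifs were searched in RefSeq promoter windows of 300 bases.

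The 10 members and 11 gene lists were chosen with earlier results of these data known. Besides the members, the text names up to 3 genes that rose and 3 that fell with the smallest adjusted p in each list (the most abundant where none passed), Stat3, Socs3, Cebpb, Nfkbia, Il6ra, Il6st, Med19 and the 5 genes most like the members' mean profile. Other genes are marked as named after their values were seen, or belong to flanks or counts of 5 or fewer. Some genes that this rule takes are counted with their list but not reported here by name.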

Additional observations from a re-analysis of the deposited data

How the results depend on the processing

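Over the 12 settings other than the reported one, Hp and Crp stayed lower and past the threshold in each, and Saa1, Saa2 and Saa3 stayed negative and short of it wherever an adjusted p was given. DESeq2, which gave no adjusted p for Saa1, Saa2 or Lcn2, called 5 members lower, adding Saa4 (log2 fold change -0.43), Orm1 (-1.40) and Orm2 (-3.28). Library size alone, which moved the median of all genes from 0.01 to 0.60, gave 0.18 for Saa4, 0.010 for Orm3, 0.11 for Stat3, 0.046 for Nfkbia, 0.53 for Il6st, 0.18 for Sf3a3 and 0.17 for Ranbp2. Relative to that median these values remain below 0. Under it 8 other positive acute phase genes fell and 2 rose, 7 negative ones fell, 1 receptor fell and 7 rose, 3 signalling genes fell and 9 rose, 40 markers of other cells rose, and over all genes 617 fell and 7711 rose. Upper-quartile factors gave 0.0097 for Il6st. Without the count filter, 8 other positive genes and 1 receptor fell.

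Leaving out 1 library at a time, log2 fold changes ran from -1.67 to -0.73 for Orm1, from -3.76 to -1.15 for Orm2, from -1.02 to 0.44 for Orm3 and from -1.785 to 2.33 for Lcn2, each upper end being the fit without control replicate 1. They ran from -0.76 to 0.10 for Stat3, from -2.54 to 0.13 for Socs3, from -0.24 to 0.12 for Il6st and from -0.027 to 0.71 for Csf3r. Members called ran from 2 to 4 lower and from 0 to 1 higher. Counts ran from 8 to 16 lower and 0 to 4 higher for other positive genes, 1 to 2 higher for negative genes, 0 to 1 lower for ligands, 0 to 4 higher for receptors, and 1 to 6 higher for signalling genes. Over all genes they ran from 1104 to 2514 lower and from 1119 to 2407 higher. The causes were not tested.

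The labels do not state that replicate numbers pair the samples. The deviations of same-numbered libraries correlated weakly, at 0.11, 0.052 and 0.094, but each library correlated best with its own number. These values do not settle whether the samples are paired. With the replicate as a block, Lcn2 was 0.59, Saa1 was -1.85 in place of -3.69 and Saa2 -2.70 in place of -4.51, none of them past the threshold with or without it, 2 members fell and 1 signalling gene rose. With genes extended by 50 kb, 1 member had a ChIP region in the knockout list and 7 in the control list. The control region at Saa4 counts there for all the Saa genes.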

Other observations

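Control replicate 1 was furthest above the other controls in genes that are not members as well. Ranked by that gap among 9462 genes with at least 5 CPM in it, Saa2 was at rank 11, Lcn2 at 12, Saa1 at 16 and Orm2 at 36. The top rank was held by the metallothionein gene Mt1, with 72.2, 27.7 and 44.8 CPM in knockout libraries, against 946, 8.58 and 7.92 CPM in control libraries. The immediate early gene Egr1 had 44.8, 75.5 and 66.6 CPM in knockout libraries, against 1563, 45.3 and 43.8 CPM in control libraries. Btg2, a growth arrest gene, had 42.4, 60.2 and 31.3 CPM in knockout libraries, against 737, 13.9 and 12.5 CPM in control libraries. Atf3, a stress-induced factor, had 1.39, 1.91 and 1.75 CPM in knockout and 62.8, 1.19 and 1.13 CPM in control libraries. These genes were named after their values were seen.

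Mt1 and Btg2 resembled Lcn2 in that their 3 knockout values lay between control replicate 1 and the other 2 controls, whereas in Hp, Crp, Orm1 and Orm2 all 3 knockout values lay below all 3 controls. The share of Orm1 in the joint counts of the 3 Orm genes was 97.7%, 97.4% and 98.8% in knockout libraries, against 93.0%, 97.7% and 98.3% in control libraries. The share of Orm2 was 1.21%, 1.76% and 0.871% in knockout libraries, against 6.52%, 1.92% and 1.45% in control libraries.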
